A study of Mus musculus with 4 samples.

Results

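Genes of collagens, laminins and matrix remodelling were followed in liver and spleen of mice on diets that differed in nucleic acid content. They were taken by name from the array's own gene names: every collagen chain (Col), laminin chain (Lama, Lamb, Lamc), fibulin (Fbln), matrix metalloproteinase (Mmp) and metalloproteinase inhibitor (Timp), together with Fn1, Sparc, Dcn, Lum, Bgn, Postn, Eln and Fbn1. The rule took 87 of 27962 gene names, with 153 probes, and used no measured value. They comprised 11 fibrillar collagen genes, 9 of basement membrane collagens, 20 of other collagens, 11 laminins, 3 fibulins, 8 glycoproteins and proteoglycans, 21 Mmp genes and 4 Timp genes.

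The mice were male C57BL/6J, 13 weeks old, with no other genetic change in the labels. Diets were given for 4 weeks, and both were the same purified food: the low-NP diet held 0.03% nucleic acids, and the NP diet, with 1.2% nucleoprotein added, held 0.5%. RNA was pooled per diet and tissue, and the number of mice in a pool is not in the labels. Each tissue had 2 Agilent arrays, and the dyes of the diets were exchanged between them (NP was Cy5 on array 1), and the arrays of a tissue were taken as dye swaps of the same pools, which leaves 1 replicate per diet and tissue and no test. The labels number the pooled samples 1 and 2, so a fit that takes each array as pools of its own is given once below.

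Fibrillar collagens form the tensile fibres of the extracellular matrix, while type IV collagen and laminins form the sheets of the basement membrane. Metalloproteinases cut these proteins and Timp proteins inhibit the metalloproteinases. In liver the fibrillar chains come mainly from stellate cells and fibroblasts, and in spleen from reticular and capsular stroma, whereas hepatocytes make plasma fibronectin and much of the collagen XVIII of the liver.

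Collagen chains share the repeat glycine-X-Y, in which glycine recurs at a fixed step. The following 60-base array probes, printed in the sense direction, lie in that repeat and show how alike the coding letters of different chains are. Capitals mark the glycine codons (GGN) spaced by 9 bases. Their mm7 positions, as the scanner files state them, show that each spans more genome than its own length: chr17:32131401-32131567 for Col11a2, chr2:27994034-27996457 for Col5a1 and chr9:20655471-20656200 for Col5a3.
Col11a2: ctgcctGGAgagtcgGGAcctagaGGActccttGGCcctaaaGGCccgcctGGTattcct
Col5a1: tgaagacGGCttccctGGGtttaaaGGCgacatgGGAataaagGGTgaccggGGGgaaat
Col5a3: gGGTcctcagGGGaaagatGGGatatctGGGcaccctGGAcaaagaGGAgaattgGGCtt
The Col11a2 and Col5a1 probes hold 6 such codons and the Col5a3 probe 7. All 3 were the dimmer probe of their gene. Their log2 ratios of NP over low NP on arrays 1 and 2 of liver were 0.02 and 0.08 for Col11a2, 0.01 and 0.18 for Col5a1, and -0.02 and 0.05 for Col5a3, so all lay close to 0.

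Diet values are given as log2 of the NP pool divided by the low-NP pool, which is opposite to the series' deposited value table, where low NP stands over NP. The figure behind ± is how far either array lay from their common mean and covers technical error only, unless each array held pools of its own, which the labels do not settle. A gene counted as measured where, on both arrays of a tissue, either channel of its probe was well above background, and as called where both arrays were at least 1.5-fold apart in the same direction. Across arrays and dyes, between 59.2% and 94.8% of 41174 probes were well above background. Spleen array 1 stood apart, with a negative-control median of 307 in Cy5, where the other arrays had at most 74.0, so results in spleen are given for both arrays. The number of arrays limits the precision.

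Of the 87 genes, 66 were measured in liver and 75 in spleen, 65 of them in both tissues. Measured in spleen alone were Col9a3, Col17a1, Col19a1, Col22a1, Mmp8, Mmp12, Mmp13, Mmp25, Mmp28 and Timp4, and in liver alone Lama1. This holds for the brightest probe of each gene, and a dimmer probe of Col22a1 was measured in liver (0.00 and -0.19). Not measured in either tissue were Col4a3, Col9a1, Col10a1, Col12a1, Col24a1, Col28a1, Mmp1a, Mmp10, Mmp20, Mmp21 and Mmp24, a total of 11. No spot of a member was saturated.

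In liver, 0 matrix genes were called higher in the NP pool (0.0702% of all measured genes were) and 2 of 66 were called lower, which is 3.03% of them where 3.63% of all 17100 measured genes were called lower. The called genes were Col1a2, a chain of type I collagen, and Timp2, an inhibitor of metalloproteinases. In spleen, 0 were called higher (background 0.0431%) and 5 of 75 lower, which is 6.67% against 6.33% of 18567 genes. These were Col18a1, Fn1, Lum, Dcn and Mmp15. The shares of called genes lay near the background in both tissues and are no result about matrix genes as a group. If each array held pools of its own, limma's fit of the 2 ratios over all measured genes, with Benjamini-Hochberg adjustment, gave adjusted p-values of 0.000378 for Col18a1, 0.00301 for Fn1, 0.00818 for Lum, 0.0207 for Dcn and 0.02 for Mmp15 in spleen, and 0.336 for Timp2 and 0.304 for Col1a2 in liver. At an adjusted p under 0.05, these 5 of 75 members were lower in spleen (6.67%, background 6.8%) and 0 of 66 in liver, where 0 of all 17100 genes were (at an unadjusted p under 0.05, 6 members and 1213 genes). Higher at that threshold were 0 members in either tissue (background 0.135% in spleen and 0% in liver). At an unadjusted p under 0.05, 2 members and 326 of 18567 genes were higher in spleen, and 1 member and 210 of 17100 genes in liver. Lower in spleen at that unadjusted threshold were 7 members and 2564 genes. These p-values measure only the spread between the 2 arrays.

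The group as a whole lay near 0. The median over the measured members was -0.06 in liver (array medians -0.01 and -0.09) and -0.01 in spleen (-0.03 and 0.03), beside 0.00 and -0.02 over all measured genes. Both medians turned above 0 with the scanner software's processed signals, to 0.04 and 0.13, where all genes were at 0.11 and 0.10. In liver 32 of 66 members lay below 0 on both arrays, 14 above 0 on both and 20 on different sides, while over all genes 30.7% lay below and 29.2% above on both arrays. In spleen 23 of 75 (30.7%) lay below, 28 (37.3%) above and 24 on different sides, while over all genes 36.3% lay below and 23.3% above. The median gap between the arrays was 0.19 in liver and 0.11 in spleen for members, and 0.19 and 0.16 over all genes.

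**Figure D1:**
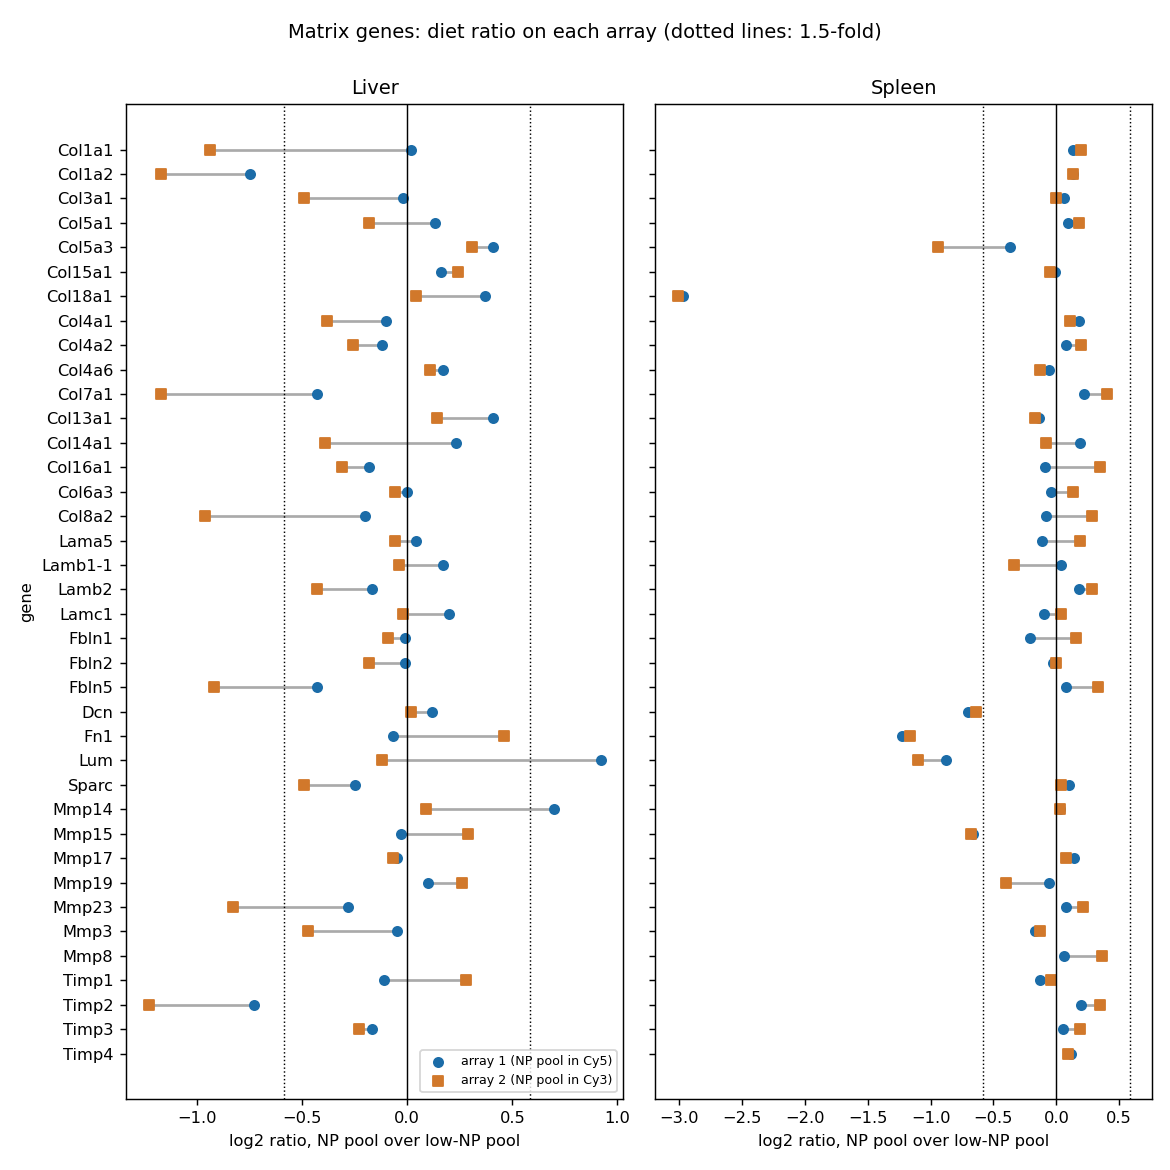
Log2 ratio of NP over low NP (horizontal axis) for the 38 members named by rule (vertical axis) in liver and spleen, on array 1 (circles) and array 2 (squares), joined by a bar; genes not measured in a tissue are blank there. In liver, array 2 lies left of array 1 for Col1a1, Col7a1 and Timp2, while in spleen Col18a1 stands alone near -3, at -2.97 and -3.01.

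Among fibrillar collagens in liver, Col1a2 had ratios of -0.75 on array 1 and -1.17 on array 2. Both arrays were thus on the low side, with a mean of -0.96 ± 0.21, or 1.95-fold lower in NP. In spleen the same probe gave 0.13 on each array. Its probe lies at chr6:4493505-4493564 in mm7, and no annotation of that build was used to place it in an exon.

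Col1a1 encodes the partner chain of Col1a2 in type I collagen. Its liver ratios were 0.02 and -0.94, so only array 2 passed 1.5-fold, and a second measured probe gave -0.05 and -0.43. In spleen the brighter probe gave 0.13 and 0.20. Col3a1, the chain of type III collagen, had -0.02 and -0.49 in liver and 0.06 and 0.00 in spleen. The type V chain gene Col5a3 had values above 0 in liver (0.41 and 0.31) and below 0 in spleen (-0.37 and -0.94), with array 2 alone past 1.5-fold in spleen. Its relative Col5a1 stayed between -0.18 and 0.18 in both tissues. Over the 10 measured fibrillar genes the liver medians were 0.00 on array 1 and -0.35 on array 2, so the arrays disagreed.

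The basement membrane collagen Col18a1 showed the largest difference of any member in these data. This collagen carries the endostatin fragment at its C-terminal end. In spleen the ratios were -2.97 and -3.01, a mean of -2.99 ± 0.02 and 7.96-fold lower in NP. A second probe of the gene, with -2.06 and -2.68, was called as well. In liver Col18a1 had 0.37 and 0.04, so neither array reached 1.5-fold. The brighter probe lies at chr10:76707663-76707722 in mm7. Its closest relative Col15a1 had 0.16 and 0.24 in liver and -0.01 and -0.05 in spleen, and was called higher in liver with the processed signals (0.84) and in the authors' deposited table (0.83).

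Type IV collagen, the main network of basement membranes, differed little. Col4a1 had -0.10 and -0.38 in liver and 0.18 and 0.11 in spleen, and Col4a2 had -0.12 and -0.26 in liver and 0.08 and 0.20 in spleen. The minor chain gene Col4a6 had 0.17 and 0.11 in liver and -0.06 and -0.13 in spleen. Col7a1, which encodes the collagen of anchoring fibrils, had -0.43 and -1.17 in liver, a mean of -0.80 ± 0.37 with only array 2 past 1.5-fold, and 0.22 and 0.40 in spleen. It was called lower in liver without background correction (-1.29), with the processed signals (-1.64) and in the authors' deposited table (-1.64).

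Of the other collagens, 0 of 12 measured in liver and 0 of 16 in spleen were called. Col8a2, a short-chain network collagen, had -0.20 and -0.96 in liver and -0.08 and 0.28 in spleen. Under the same 3 settings as Col7a1 it was called lower in liver, at -1.05, -2.14 and, in the authors' deposited table, -2.14. The transmembrane collagen Col13a1 had 0.41 and 0.14 in liver and -0.14 and -0.17 in spleen. Its second measured probe gave -0.03 and 0.27 in liver and 0.31 and 0.04 in spleen. Col16a1, which sits on the surface of fibrils, had -0.18 and -0.31 in liver and -0.09 and 0.35 in spleen, and Col14a1, of the same class, had 0.23 and -0.39 and then 0.19 and -0.08. Col6a3, of the microfibrils around cells, lay between -0.06 and 0.13 throughout.

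No laminin was called, among 11 measured in liver and 10 in spleen, and the median ratios were 0.04 and -0.03. By mean ratio the widest in liver was Lamb2, a beta chain, with -0.17 and -0.43, and with 0.18 and 0.28 in spleen. In spleen the widest was Lama3, with -0.21 and -0.31, and with 0.09 and 0.04 in liver. Lamc1, the gamma chain shared by most laminins, had 0.20 and -0.02 in liver and -0.10 and 0.04 in spleen. Lamb1-1, the array's name for the beta chain gene Lamb1, had 0.17 and -0.04 in liver and 0.04 and -0.34 in spleen. Lama5, an alpha chain, had 0.04 and -0.06 in liver and -0.11 and 0.19 in spleen. Every one of these laminin values was under 1.5-fold.

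Among fibulins, which bind elastic fibres and basement membranes, Fbln5 had -0.43 and -0.92 in liver, so array 1 missed 1.5-fold, and 0.08 and 0.33 in spleen. It too was called lower in liver without background correction (-0.81), with the processed signals (-0.75) and in the authors' deposited table (-0.75). Fbln1 had -0.01 and -0.09 in liver and -0.21 and 0.16 in spleen. Fbln2 lay between -0.18 and 0.00 on the 4 arrays.

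Of 8 measured glycoproteins and proteoglycans, 3 were called lower in spleen and 0 in liver, beside 6.33% and 3.63% of all measured genes. With so few genes, these counts are no result about the class. Fn1, which encodes fibronectin, had -1.23 and -1.16 in spleen, a mean of -1.19 ± 0.03 and 2.29-fold lower in NP, and -0.07 and 0.46 in liver. Its other measured probes gave smaller spleen ratios, -0.41 and -0.63 on one and -0.05 and -0.41 on the other, and the median over the 3 probes, -0.52, was not called. The probes of Fn1 thus disagree on the size of the difference.

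Lum and Dcn encode lumican and decorin, small leucine-rich proteoglycans that bind collagen fibrils. Lum had -0.88 and -1.10 in spleen (-0.99 ± 0.11, 1.98-fold lower), and its liver arrays lay far apart, at 0.92 and -0.12. Dcn had -0.70 and -0.64 in spleen (-0.67 ± 0.03, 1.59-fold lower) and 0.12 and 0.02 in liver, and its call was lost with the processed signals (-0.59) and in the authors' deposited table (-0.60). Sparc, a collagen-binding glycoprotein, had -0.25 and -0.49 in liver and 0.10 and 0.04 in spleen. Its second measured probe gave 0.19 and -0.50 in liver and 0.09 and 0.20 in spleen.

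Of the metalloproteinases, 0 of 11 measured in liver and 1 of 16 in spleen were called. Mmp15, a membrane-bound metalloproteinase, had -0.66 and -0.68 in spleen (-0.67 ± 0.01, 1.59-fold lower) and -0.03 and 0.29 in liver. Its normalized log2 levels in spleen were low, at 7.0 and 7.9 in NP and 7.7 and 8.5 in low NP. Mmp20, which was not measured, stood at 7.2 and 6.9 in NP spleen. The Mmp15 ratio lay just past the threshold and was not called without background correction (-0.58). It was -1.04 with the processed signals and -1.05 in the authors' deposited table, so its size depended on how background was handled. Mmp14, the membrane-bound activator of Mmp2, had 0.70 and 0.09 in liver and 0.03 on each spleen array. Mmp23 had -0.28 and -0.83 in liver and 0.08 and 0.21 in spleen, and was called lower in liver without background correction (-0.90), with the processed signals (-1.10) and in the authors' deposited table (-1.10). Mmp19 had 0.10 and 0.26 in liver and -0.06 and -0.40 in spleen, Mmp17 -0.05 and -0.07 and then 0.14 and 0.08, and Mmp3, stromelysin, -0.05 and -0.47 and then -0.17 and -0.13. Mmp8, the collagenase of neutrophils, was measured in spleen only, at 0.06 and 0.36.

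Among the inhibitors, Timp2 had -0.73 and -1.23 in liver, a mean of -0.98 ± 0.25 and 1.97-fold lower in NP. In spleen it had 0.20 and 0.35, so the tissues lay on opposite sides of 0. Timp3, the inhibitor bound to the matrix, had -0.17 and -0.23 in liver and 0.05 and 0.19 in spleen. Timp1 had -0.11 and 0.28 in liver and -0.13 and -0.04 in spleen, and Timp4, measured in spleen, had 0.12 and 0.09.

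The liver calls depended on the array and on the normalization. On array 2 alone 9 of 66 members were at least 1.5-fold lower, namely Col1a1, Col1a2, Col7a1, Col8a2, Col11a2, Fbln5, Fbn1, Mmp23 and Timp2, and on array 1 alone only Col1a2 and Timp2 were. That is 13.6% and 3.03% of the members, beside 11.3% and 4.11% of all measured genes on the same arrays, so these shares too lay near the background. With median centring in place of loess, array 1 gave -0.17 for Col1a2 and -0.13 for Timp2, and neither was called. The spleen arrays were closer, with 5 members past 1.5-fold on array 1 and 6 on array 2, where Col5a3 was added (6.67% and 8%, background 6.72% and 9.05%).

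Set against each other, the pools also differed between tissues. Levels per channel, normalized so that arrays could be compared, were matched by dye, and a gene was called where spleen and liver differed at least 2-fold in both dyes. In the NP pools 14 of 75 matrix genes were called higher in spleen (18.7%, background 14.9%) and 10 higher in liver (13.3%, background 13.8%). In the low-NP pools 9 of 76 were higher in spleen (11.8%, background 9.25%) and 5 higher in liver (6.58%, background 8.45%). The processed signals scaled at the 75th percentile gave 32 and 10 in the NP pools (42.7% and 13.3%, background 27.3% and 17.2%) and 27 and 7 in the low-NP pools (35.5% and 9.21%, background 21.5% and 13.3%), so all genes shifted toward spleen there as well. These comparisons use the same pools as the diet ratios, so the values below are set side by side and are no further evidence.

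On the spleen side stood type I collagen, Timp2 and Fbln5. Timp2 was 3.09 log2 units higher in spleen than in liver in the NP pools and 1.83 in the low-NP pools. Col1a2 differed by 2.92 and 1.83, Col7a1 by 2.73 and 1.62, Fbln5 by 2.54 and 1.66, and Col1a1 by 2.15 and 1.52. Smaller differences were those of Col8a2 (2.02 and 1.34), Timp3 (1.66 and 1.34), Lamb2 (1.58 and 1.05), Sparc (1.52 and 1.08), Col16a1 (1.49 and 1.11) and Col3a1 (1.32 and 1.03). Of these, Col8a2, Lamb2, Col16a1 and Col3a1 were called in the NP pools only. Mmp23 was 2.00 higher in NP spleen and was called in the low-NP pools as well. Mmp8 and the gelatinase Mmp9 were not well above background in NP liver and were at least 3.40-fold and at least 2.50-fold higher in NP spleen, from normalized levels per channel. Mmp9 was not called in the low-NP pools.

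On the liver side stood Col18a1, Fn1 and Col5a3. Col18a1 was lower in spleen than in liver by -4.77 log2 units in the NP pools and -1.58 in the low-NP pools. Fn1 differed by -3.65 and -2.26, Col5a3 by -2.94 and -1.93, Lum by -2.80 and -1.42, and Mmp15 by -2.55 and -1.75. Mmp19 (-1.62 and -1.21), Dcn (-1.44 and -0.70), Lama3 (-1.38 and -1.06), Col13a1 (-1.28 and -0.85) and Timp1 (-1.13 and -0.96) were called in the NP pools only.

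The tissues lay closer together in the low-NP pools. Of the 24 matrix genes called between tissues in the NP pools, 24 had a smaller difference in the low-NP pools, with a median absolute difference of 1.90 in NP and 1.34 in low NP, and 14 were called in both. None was called in the low-NP pools alone. The 24 were chosen on the NP values, which favours a smaller value in the other pools. The gap between the NP and low-NP values of a gene is, by arithmetic, close to the difference of its diet ratios in spleen and liver.

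**Figure D2:**
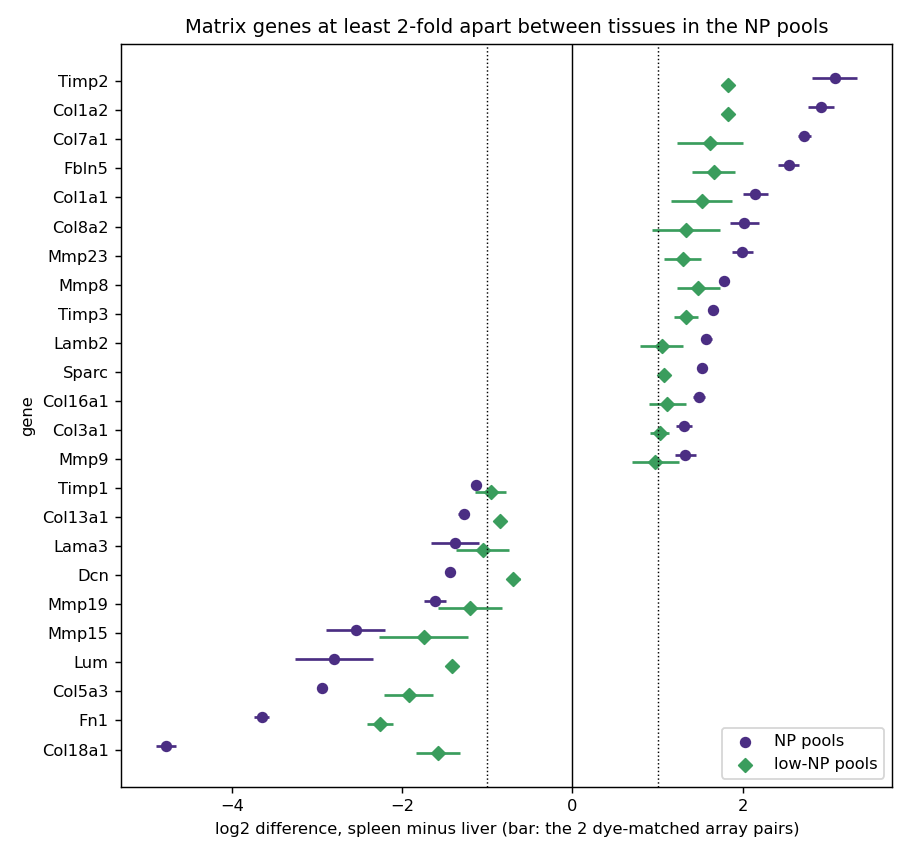
Log2 difference of spleen minus liver (horizontal axis) for the 24 members called in the NP pools (vertical axis), in NP pools (circles) and low-NP pools (diamonds); bars join the dye-matched array pairs and dotted lines mark 2-fold. The low-NP value lies nearer 0 for each gene, as for Col18a1 (-4.77 and -1.58) and Timp2 (3.09 and 1.83).

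The levels of the genes called between diets were also read pool by pool. Col18a1 had normalized log2 levels of 16.2 on both arrays of NP liver, 15.8 and 16.2 of low-NP liver, 14.5 and 14.4 of low-NP spleen, and 11.5 and 11.4 of NP spleen. The NP spleen pool was thus the low one. Col1a2 had 11.2 and 11.1 in NP liver, 12.0 and 12.2 in low-NP liver, 13.9 and 14.0 in low-NP spleen and 14.0 and 14.1 in NP spleen, so the spleen pools were high and NP liver was lowest. Timp2 ran from 11.4 and 11.1 in NP liver over 12.1 and 12.3 in low-NP liver to 14.0 and 14.1 in low-NP spleen and 14.2 and 14.4 in NP spleen. Fn1 was at 13.5 and 13.7 in NP liver, 13.6 and 13.2 in low-NP liver and 11.2 and 11.1 in low-NP spleen, and both arrays of NP spleen lay below these.

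**Figure D3:**
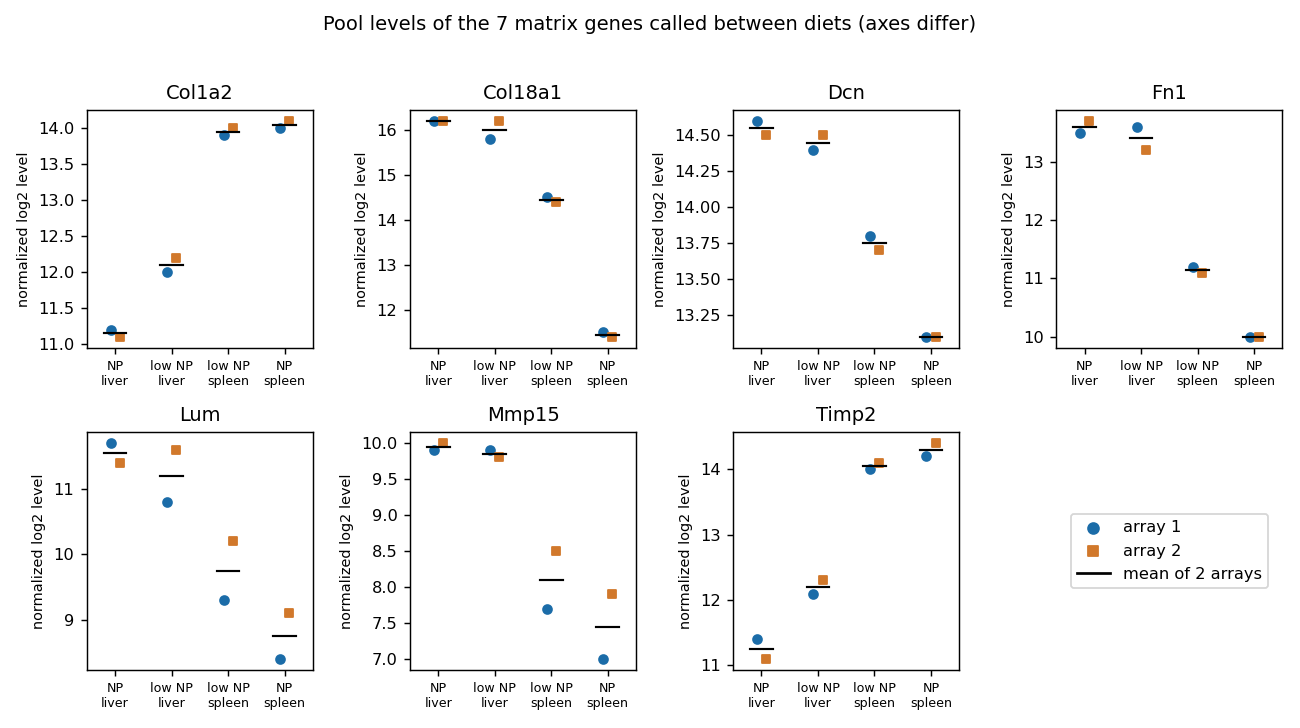
Normalized log2 level (vertical axis, scaled per gene) of the 7 members called between diets in the 4 pools (horizontal axis), on array 1 (circles) and array 2 (squares), with their mean (line). For Col18a1, Dcn, Fn1, Lum and Mmp15 the NP spleen pool is lowest, and for Col1a2 and Timp2 the NP liver pool is lowest.

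Markers of other cells moved with the same pools. Beside the marker counts here and in the following paragraphs, 3.63% of all measured genes were called lower in liver and 6.33% in spleen. In spleen 8 of 8 measured hepatocyte markers were called lower in NP, with a median of -6.63, and their summed level was 19.2 to 19.5 log2 in low-NP spleen against 11.9 to 13.5 in NP spleen. Between the tissues on the low-NP diet, spleen minus liver was 0.04 for Fgb, 0.08 for Ambp and -0.22 for Fgg. These stood about as high in spleen as in liver, though Ambp was saturated on 1 liver array. The other markers were lower in spleen, namely Apoh (-1.01), Apoa1 (-1.62), Cps1 (-1.82), Ttr (-1.97) and Tat (-2.56). In the NP pools the differences were -6.22 for Fgb and -7.90 for Ambp. In liver 6 of 8 B cell markers (median -2.10) and 7 of 9 T cell markers (-2.12) were lower in NP. The B cell sum was 15.1 to 15.4 in low-NP liver against 11.3 to 12.0 in NP liver, where Cd79a and Blk were not well above background, and the T cell sum was 13.8 to 14.4 against 11.5 to 12.2. Of the spleen reticular stroma markers, 3 of 7 were lower in NP liver, namely Ccl19 (-2.99), Cr2 (-2.08) and Cxcl13 (-1.91), with sums of 14.2 to 14.7 in low-NP liver against 11.9 to 12.3 in NP liver, where Pdpn and Tlx1 were not well above background. The part of these cells' RNA in the differences of Col18a1, Fn1, Lum, Dcn, Mmp15, Col1a2 and Timp2 was not tested. In bulk tissue, fewer cells of a type and less RNA per cell cannot be told apart. Whether the marker RNA in a pool came from cells of the labelled tissue was not tested either.

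Exocrine pancreas markers were called lower in NP in both tissues, 9 of 9 in each, with medians of -1.05 in liver and -2.12 in spleen. Their sums were 18.3 to 18.4 in low-NP liver against 17.2 to 17.4 in NP liver, and 20.2 to 20.3 in low-NP spleen against 17.6 to 18.4 in NP spleen. Bile duct and mesothelium lists held 1 of 4 (Spp1, -2.55) and 2 of 4 (Krt8, -4.00, and Krt18, -3.86) called lower in spleen. The other measured members of these lists were not called there, namely Krt7 (-0.09), Krt19 (-0.10), Sox9 (-0.28), Msln (-0.01) and Upk3b (-0.06). Krt8 and Krt18 were at levels of 14.8 and 15.7 in NP liver, and lower in NP spleen by -6.13 and -5.86. Their calls are thus no result about mesothelium. Macrophage markers were lower for 3 of 9 in liver (Csf1r, Marco and Spic) and 2 of 9 in spleen (Clec4f and Vsig4), neutrophil markers for 1 of 7 in liver (S100a9) and megakaryocyte markers for 1 of 6 in liver (Treml1). The part of these lists in the differences of the matrix genes was not tested.

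Markers of the cells known to make fibrillar collagen, and of endothelium, were read in the same way. Of 11 measured stellate cell and fibroblast markers, 2 were called lower in liver, Thy1 (-1.88) and Acta2 (-0.69), with a list median of -0.25, and 1 in spleen, Reln (-1.25), with a median of 0.08. Their summed level was 14.7 in low-NP liver and 14.2 to 14.3 in NP liver. In liver 7 of the 11 lay below 0 on both arrays and 2 above, and in spleen 3 lay below and 5 above. The part of these cells' RNA in the differences of the matrix genes was not tested. Of 10 endothelial markers, 0 were called in either tissue. Thy1, which T cells also carry, was 4.17 log2 units higher in spleen than in liver in the NP pools.

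Further genes of the matrix pathway were read from lists, with 0 genes called higher in any of them (background 0.0702% in liver and 0.0431% in spleen). For each list, the background of genes called lower is 3.63% in liver and 6.33% in spleen. Of the enzymes and chaperones that make and crosslink collagen, 0 of 18 were called in liver and 2 of 19 lower in spleen. These were P4hb (-0.88 ± 0.13), a subunit of prolyl hydroxylase, and Bmp1 (-0.79 ± 0.14), which removes the C-terminal propeptide of fibrillar procollagens. The collagen chaperone gene Serpinh1 had 0.01 and -0.55 in liver and -0.06 and 0.29 in spleen.

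Among other basement membrane and matrix proteins, 0 of 22 were called in liver and 1 of 25 in spleen, Vtn (-4.89 ± 0.38), the plasma protein vitronectin made by hepatocytes. By the smaller of the 2 arrays' ratios, those furthest below 0 in liver without a call were Tnxb (-0.43 and -0.53) and Sparcl1 (-0.40 and -1.05). In spleen Emilin2, an elastic fibre glycoprotein, had 0.58 and 0.53, just under the threshold.

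Of 22 matrix receptors measured in each tissue, 3 were called lower in each (background 3.63% in liver and 6.33% in spleen). In liver these were the hyaluronan receptor Cd44 (-1.19 ± 0.35) and the integrin chains Itga6 (-1.06 ± 0.44) and Itgb3 (-0.87 ± 0.24). In spleen they were the syndecans Sdc2 (-1.70 ± 0.05), Sdc1 (-1.01 ± 0.02) and Sdc4 (-0.82 ± 0.05). Syndecans are membrane proteoglycans. In the NP pools, Cd44, Itga6 and Itgb3 were 3.66, 3.16 and 2.79 log2 units higher in spleen than in liver. Sdc2, Sdc1 and Sdc4 were lower in spleen by -3.90, -3.19 and -2.29.

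Of the other matrix proteases and their inhibitors, 2 of 18 were called lower in liver, the cathepsin gene Ctss (-1.25 ± 0.40) and the urokinase receptor gene Plaur (-1.05 ± 0.45), and 1 of 20 in spleen, the cathepsin gene Ctsl (-1.31 ± 0.07). Of the TGF beta pathway and its inducers of matrix, 2 of 18 were called lower in liver, Ctgf (-0.78 ± 0.11), a matricellular growth factor, and the receptor gene Tgfbr2 (-0.65 ± 0.00). In spleen 1 of 18 was called lower, the activin subunit gene Inhba (-0.76 ± 0.02). Tgfb1 itself had -0.34 and -0.95 in liver and 0.12 and 0.21 in spleen.

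**Figure D4:**
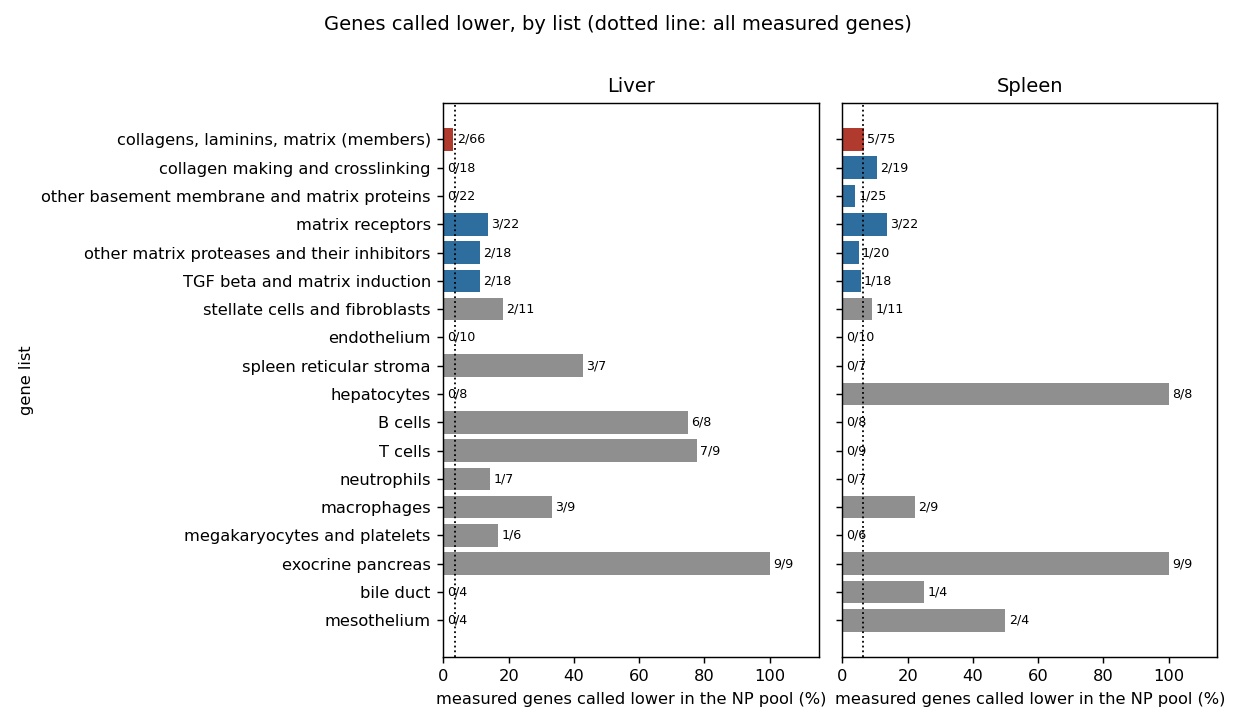
Percent of measured genes called lower in the NP pool (horizontal axis) for the matrix genes (top bar), the pathway lists and the cell type marker lists (vertical axis) in liver and spleen, with counts at the bar ends and the percent over all measured genes as a dotted line. The matrix genes sit at the line in both tissues (2 of 66 and 5 of 75), while B and T cell markers in liver and hepatocyte markers in spleen reach far beyond it.

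Upstream sequences are shown for the called genes that RefSeq's promoter table for GRCm38.p6 holds, since Col1a2 and Timp2 were lower together in NP liver and Col18a1 and Mmp15 together in NP spleen. The table had entries for 63 of the 87 symbols and for 4 of the 7 called genes, and Dcn, Fn1 and Lum had none. Each run gives the 150 bases before a start site, on the gene's strand, and capitals mark the motifs searched on both strands in the 250 bases before the start. These were the CCAAT box, the TATA box searched as TATAAA, the GC box searched as GGGCGG, the AP-1 motif searched as TGANTCA, and part of the HNF1 motif searched as GTTAAT. No searched motif overlapped another in the runs shown.
Col1a2 (chr6:4505468-4505617, plus strand): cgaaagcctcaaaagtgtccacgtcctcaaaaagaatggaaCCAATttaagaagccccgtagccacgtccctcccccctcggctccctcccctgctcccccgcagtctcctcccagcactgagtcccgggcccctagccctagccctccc
Timp2 (chr11:118355412-118355561, minus strand): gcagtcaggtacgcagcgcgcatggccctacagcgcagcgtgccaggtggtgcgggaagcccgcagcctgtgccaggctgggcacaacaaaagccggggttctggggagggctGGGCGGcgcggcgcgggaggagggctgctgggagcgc
Col18a1, upstream start (chr10:77166531-77166680, minus strand): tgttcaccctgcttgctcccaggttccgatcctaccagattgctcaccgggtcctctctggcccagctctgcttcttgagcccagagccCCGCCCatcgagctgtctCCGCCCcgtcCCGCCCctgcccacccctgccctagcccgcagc
Col18a1, inner start (chr10:77113706-77113855, minus strand): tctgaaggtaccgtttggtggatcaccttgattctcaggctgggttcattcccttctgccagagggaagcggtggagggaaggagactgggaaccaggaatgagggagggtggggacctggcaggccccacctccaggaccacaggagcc
Mmp15 (chr8:95352146-95352295, plus strand): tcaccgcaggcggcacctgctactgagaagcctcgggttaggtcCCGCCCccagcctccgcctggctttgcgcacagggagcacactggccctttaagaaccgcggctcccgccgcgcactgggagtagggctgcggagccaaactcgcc
In the 250 bases, the GC box was found 3 times at the upstream start of Col18a1, 2 times in Col1a2 and 1 time each in Timp2 and Mmp15, and the CCAAT box 1 time each in Col1a2, Timp2 and the upstream start of Col18a1. The inner start of Col18a1 held 0 of the 5 motifs, and the TATA box, the AP-1 motif and the HNF1 letters were in none of these windows. Over all 32851 promoter windows of that length, 32.7% hold the GC box, 33.8% the CCAAT box, 12.4% the TATA box, 6.75% the AP-1 motif and 6.43% the HNF1 letters. The windows had a GC content of 57.6% to 68.0%, above the median of 52.4% over all windows. A match to these letters is a description and does not show a binding site.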

How the data were processed

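RNA pools of liver and spleen were hybridised on 4 two-colour arrays of 1 slide, per the labels. The deposited scanner files hold each spot's intensity (mean foreground, median local background and processed signals) and, per the file headers, a log10 ratio of red over green. The software was Agilent Feature Extraction 9.5.3.1 per the submitters' processing notes. The deposited value table holds log10 ratios of the authors. The correlations of its columns with the scanner ratio were -0.992, 0.990, -0.989 and 0.998, so with the labelled dyes each column is low NP over NP. Medians lay between -0.07 and 0.03, so it is not centred. The labels and headers do not say how it was made.

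From the intensity values, log2 ratios were computed with limma 3.58.1 in R 4.3.3 (normexp background correction, offset 50, loess within each array), with 1639 control spots and 109 to 180 outlier spots per array at weight 0. All ratios were then given the sign of NP over low NP. Levels per channel were made with Aquantile after loess, and set against each other only within a probe. The brightest probe stood for a gene, and 49 members had several. Tables were made in Python 3.11.15 with numpy 2.4.6 and pandas 2.3.3, and figures with matplotlib 3.10.9. Promoters came from RefSeq tables of GRCm38.p6.

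The arrays of a tissue were taken as dye-swapped hybridisations of the same RNA, and an alternative chosen after seeing the data took each as pools of its own (limma's lmFit and eBayes). Members and lists were chosen with earlier results of these data known. Named are members called, the 5 highest and lowest per tissue on both arrays, the 8 widest between tissues and the 4 brightest of each role. Alternatives were median centring, no background correction, processed signals, the authors' table, other filters, folds and probe rules, current RefSeq symbols, and leaving out an array.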

Additional observations from a re-analysis of the deposited data

Results flagged for a closer look

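For 19 members both arrays of one tissue lay on the opposite side of 0 from both arrays of the other. This was read on each gene's brightest probe and is why they are given here. None of these differences between tissues was tested. Of their second probes measured in both tissues, that of Col4a1 showed the same pattern. Those of Col13a1, Col18a1, Col4a2, Col4a6, Mmp17 and Sparc did not. Of the 19, 4 were called in 1 tissue, and the difference of liver minus spleen in the log2 ratio of NP over low NP was 3.19 for Col18a1, -1.26 for Timp2, -1.09 for Col1a2 and 0.74 for Dcn. The other 15 were called in neither tissue. The difference was above 0 for Col5a3 (1.01), Col13a1 (0.43), Mmp19 (0.41), Col15a1 (0.23) and Col4a6 (0.23). It was below 0 for Col7a1 (-1.11), Fbln5 (-0.88), Mmp23 (-0.70), Lamb2 (-0.53), Sparc (-0.44), Col4a1 (-0.38), Col4a2 (-0.33), Timp3 (-0.32), Col3a1 (-0.29) and Mmp17 (-0.17).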

How the results depend on the processing

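Members called lower in liver numbered 0 with median centring, 6 with no background correction, 9 with the processed signals and with the authors' table, 0 at 2-fold and 4 at 1.3-fold, while over all genes 324, 1333, 1755, 1762, 296 and 1002 of 17100 were called lower (621 as reported). They ranged from 2 to 9 when an array was left out, with 9 without array 1 (all genes 702 to 1924). Those called higher in liver numbered 1 with the processed signals and with the authors' table (Col15a1), where 303 and 312 of all 17100 genes were. They numbered 0 to 2 when an array was left out (all genes 76 to 345, and 12 as reported). The liver median was 0.04 and 0.03 with these signals and table, where the median of all genes moved from 0.00 to 0.11 and 0.10. The spleen median was -0.06 with median centring (all genes -0.15), 0.13 with the processed signals and the authors' table (all genes 0.10), and 0.04 over several probes. Members called lower in spleen numbered 2 at 2-fold, and 5 to 6 when an array was left out (all genes 1248 to 1680 of 18567). Col18a1 kept its call under all 12 alternatives, Fn1 and Lum under 11, Col1a2, Timp2 and Mmp15 under 10 and Dcn under 9. These counts include alternatives that cannot remove a call, namely leaving out an array, the 1.3-fold threshold and no filter on dim probes. For Lum, Mmp15 and Timp2, with 1 probe each, the probe median cannot remove it either. The same holds for Col1a2 and Dcn, whose second probe was not measured in the tissue of the call. The counts are thus no measure of how stable a call is. Between tissues, members higher in NP spleen numbered 32 with the processed signals (all genes 5121 of 18741, against 2793 as reported) and 4 at 4-fold, and those higher in NP liver 5 at 4-fold. In the low-NP pools those higher in spleen numbered 27 with the processed signals (all genes 4116 of 19180, against 1775) and 0 at 4-fold, and those higher in liver 1 at 4-fold. Leaving out an array pair gave 9 to 16 higher in spleen and 5 to 9 higher in liver, the higher counts without array 2. The cause of these shifts was not tested. No all-gene share stands beside the counts at 2-fold in spleen, at 4-fold or without an array pair. Those counts are thus no result about matrix genes. No value of a called gene changed sign. Of the alternative values of named members, 381 moved by less than 1 SD of the 2 arrays and 137 by more. Leaving out an array always shifts the mean of 2 arrays by less than their SD, so those values are among the 381 by construction. With each array taken as pools of its own, its number pairs the diets as a block (chosen after seeing the data). At an adjusted p under 0.05, limma then called 5 members lower in spleen (all genes 1262 of 18567) and 0 in liver (0 of 17100). It called 0 higher in either tissue (all genes 25 in spleen and 0 in liver). At an unadjusted p under 0.05, 2 members were higher in spleen (all genes 326) and 1 in liver (all genes 210).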
